A study of Rattus norvegicus with 12 samples.

Results

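Expression of 8 genes of the homeostatic chemokine group and the CXCL12 axis was described in cultured rings of rat aorta. The ligands were Cxcl12, Ccl19, Cxcl13, Cxcl16, Cx3cl1 and Cxcl14, and the receptors were Cxcr4 and Ackr3. They were taken by symbol from the array annotation and are 8 of the 14324 genes that the annotation names singly. Each of the 8 had 1 probe set. Aortas of male Fisher 344 rats aged 1 to 2 months were cut into rings, embedded in a gel and kept in serum-free EBM medium until day 2. The collagen control and fibrin control groups were untreated, and the collagen TNF and fibrin TNF groups received 10 ng/ml recombinant rat TNF-alpha, an inflammatory cytokine. Each sample pooled 4 to 6 ring cultures, each Affymetrix whole-transcript array was prepared from 200 ng of total RNA, and there were 3 arrays per group. The tissue label names collagen gels for the fibrin samples too, so the matrix was taken from the sample titles. The titles call the replicates biological, but whether they came from separate animals is not stated, and the p-values speak only of the spread between the arrays at hand.

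Homeostatic chemokines are made largely without an inflammatory stimulus, by stromal, endothelial and epithelial cells, and set where lymphocytes and progenitor cells settle. CXCL12 acts through the G protein-coupled receptor CXCR4, and the atypical receptor ACKR3 binds and removes it. CCL19 is a ligand of CCR7 and CXCL13 of CXCR5, the receptors that position T cells, dendritic cells and B cells in lymphoid tissue. CXCL16 and CX3CL1 are made as membrane proteins with a chemokine domain on a stalk. They hold cells that carry CXCR6 or CX3CR1, and metalloproteases release them from the surface. In the vessel wall the CXCL12 axis is known for the recruitment of progenitor cells and for sprouting.

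Promoter sequences of the 4 genes whose group means spanned at least 1 log2 unit are given because the results turn on these genes. They come from RefSeq (assembly GRCr8), in which all 8 genes were matched. Each run is the 250 bases upstream of the annotated gene start, 5′ to 3′ on the gene's strand. Capitals mark motif matches. Ccl19 lies at chr5:61761165-61761414 (minus strand), Cxcl13 at chr14:13917921-13918170 (minus strand), Cxcl16 at chr10:55669951-55670200 (minus strand) and Cxcl12 at chr4:152060531-152060780 (plus strand).
Ccl19: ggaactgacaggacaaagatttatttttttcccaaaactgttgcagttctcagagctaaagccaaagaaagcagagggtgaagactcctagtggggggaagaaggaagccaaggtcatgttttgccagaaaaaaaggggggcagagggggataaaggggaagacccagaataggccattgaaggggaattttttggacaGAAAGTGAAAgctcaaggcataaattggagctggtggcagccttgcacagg
Cxcl13: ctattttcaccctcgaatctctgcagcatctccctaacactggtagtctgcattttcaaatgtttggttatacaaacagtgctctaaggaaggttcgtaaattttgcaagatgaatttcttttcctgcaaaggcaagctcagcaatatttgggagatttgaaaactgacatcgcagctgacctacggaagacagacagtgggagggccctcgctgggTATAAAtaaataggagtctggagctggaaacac
Cxcl16: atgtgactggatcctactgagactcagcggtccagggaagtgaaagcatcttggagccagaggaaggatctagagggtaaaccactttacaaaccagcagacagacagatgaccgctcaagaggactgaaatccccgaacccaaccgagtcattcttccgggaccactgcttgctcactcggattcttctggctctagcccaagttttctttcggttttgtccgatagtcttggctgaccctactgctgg
Cxcl12: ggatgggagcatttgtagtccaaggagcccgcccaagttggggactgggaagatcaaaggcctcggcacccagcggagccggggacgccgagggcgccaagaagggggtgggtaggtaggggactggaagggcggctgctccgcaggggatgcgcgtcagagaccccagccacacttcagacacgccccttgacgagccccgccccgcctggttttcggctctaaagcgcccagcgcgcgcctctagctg

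Motifs were searched on both strands in the 250 upstream bases of these genes and of 33469 RefSeq promoters. They were the kappaB consensus, the interferon-response core GAAANNGAAA, the hypoxia-response core ACGTG and the TATA box TATAAA. The kappaB consensus was found in 0 of the 8 genes and in 3.54% of all promoters. GAAANNGAAA was found in Ccl19 alone of the 8, from 51 to 42 bases before the start, and in 3.41% of all promoters. TATAAA was found in Cxcl13, from 33 to 28 bases before the start, in Cxcr4, Ackr3 and Cx3cl1, and in 12.9% of all promoters. ACGTG was found in 0 of the 8 and in 16.6% of all promoters. A match describes letters in this window and not a bound site. With only 8 genes, 0 matches cannot be told apart from these shares over all promoters. Sites outside the 250 bases were not searched. In the GRCr8 gene order, Ccl19 stands next to Ccl27 and near Ccl21, Cx3cl1 stands between Ccl17 and Ccl22, and Cxcl16 lies near Arrb2, which encodes a beta-arrestin.

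The first questions were what TNF did to these genes in each gel and what fibrin did without TNF. Ccl19, Cxcl13 and Cxcl16 rose with TNF in collagen and were also higher in fibrin than in collagen without TNF. Cxcl12 went the other way: it fell with TNF in both gels and was lower in fibrin than in collagen with and without TNF. The receptor genes Cxcr4 and Ackr3 passed the test in 0 of the 5 comparisons, and in 0 at an unadjusted p under 0.05. Differences are on the log2 scale of the deposited values, from a limma fit over all 14324 genes, and a gene was called where its Benjamini-Hochberg adjusted p was under 0.05.

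**Figure D1:**
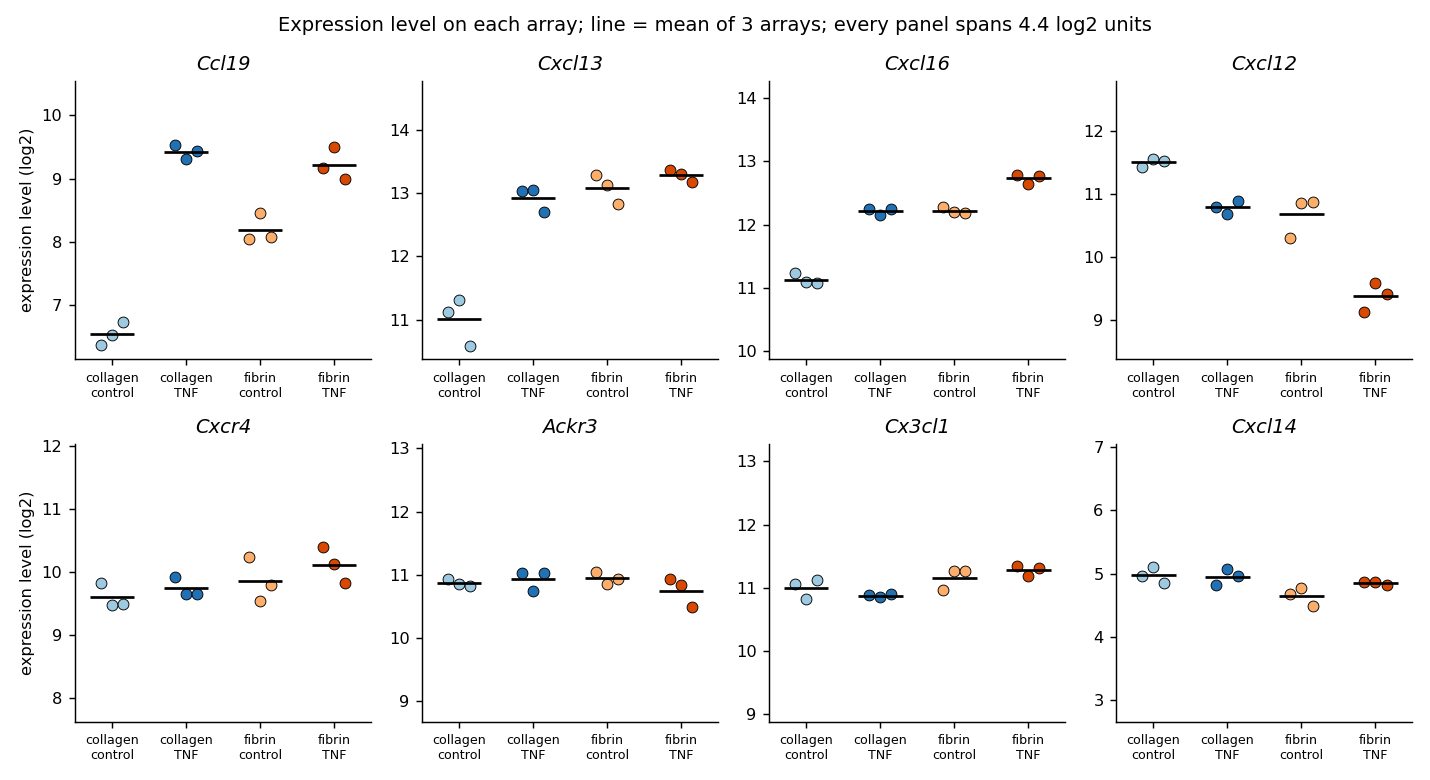
Expression level (log2) of each of the 8 genes on each array, by group. Points are single arrays (n = 3 per group), lines are group means, and every panel has the same height in log2 units. Ccl19, Cxcl13 and Cxcl16 are lowest in collagen control, and Cxcl12 is lowest in fibrin TNF, where its 3 arrays lie between 9.13 and 9.59.

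With TNF in collagen, 3 of the 8 genes were higher and 1 was lower, against 3.27% and 3.10% of all genes tested. The arrays of the groups did not overlap for 4 of the 8, against 26.5% of all genes. The median log2 difference of the 8 was 0.10, beside 0.0027 over all genes. With TNF in fibrin, 2 were higher (1.65% of all genes) and 1 was lower (1.47%), and the arrays did not overlap for 4 of the 8 (18.1% of all genes). The median was 0.21, beside 0.012 over all genes.

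In fibrin against collagen without TNF, 3 of the 8 were higher (5.35% of all genes) and 2 were lower (5.19%). The arrays did not overlap for 5 of the 8 (29.3% of all genes), and the median difference was 0.21, beside -0.0094 over all genes. With TNF, 2 were higher (4.55%) and 1 was lower (3.64%). The arrays did not overlap for 4 of the 8 (27.6% of all genes), and the median was 0.13, beside -0.0043 over all genes. Centring each array on its median moved the split over all genes from 767 higher and 743 lower to 1217 and 474 without TNF, and from 652 and 521 to 880 and 387 with TNF. Of the 8 genes it ended 1 call, that of Cxcl14. The comparisons share groups, so the values of one gene in them are not independent of each other.

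Macrophage markers moved with the matrix. Of 10 macrophage markers, 7 were lower in fibrin than in collagen without TNF (median -0.83, against 5.19% of all genes called lower) and 7 with TNF (median -0.998, against 3.64%). They ran from C1qa (-0.48 and -0.69) to Cd163 (-2.19 and -2.70). The other 3 were not called: Adgre1 was at 0.52 and 0.50, Mertk at 0.095 and -0.016, and Cd68 at -0.16 and -0.052. With TNF in collagen 0 of the 10 were called (2 higher and 2 lower at an unadjusted p under 0.05). With TNF in fibrin Cd68 was called higher (0.39) and C1qc lower (-0.61), against 1.65% and 1.47% of all genes. The mean level over the list ran from 9.05 to 9.33 in collagen control, 8.91 to 9.27 in collagen TNF, 8.29 to 8.55 in fibrin control and 8.03 to 8.32 in fibrin TNF. These values stand beside the matrix differences of all 8 genes, and their part in them was not tested. In these bulk samples fewer cells of a type and less RNA per cell cannot be told apart.

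Ccl19, the ligand of CCR7, had the largest range of group means among the 8 genes, 2.89 log2 units. Its levels were 6.36, 6.52 and 6.73 in collagen control and 9.53, 9.32 and 9.43 in collagen TNF. In fibrin they were 8.05, 8.46 and 8.07 without TNF and 9.17, 9.49 and 8.999 with it. Every array with TNF was above every array without it, and untreated fibrin lay between untreated and treated collagen.

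With TNF in collagen Ccl19 rose 7.40-fold, by 2.89 ± 0.14 (log2, SE; adjusted p = 1.87e-07). In fibrin it rose 2.04-fold, by 1.03 ± 0.14 (adjusted p = 0.00167). Without TNF it was 3.15-fold higher in fibrin than in collagen (1.66 ± 0.14, adjusted p = 6.86e-06). With TNF the matrices were not called different, at -0.20 with a 95% interval of -0.51 to 0.10 (adjusted p = 0.447). The TNF effect was smaller in fibrin than in collagen, with a difference of -1.86 (log2, fibrin minus collagen, 95% interval -2.29 to -1.42, adjusted p = 8.58e-04). In the order of group means, collagen TNF and fibrin TNF did not pass as different, and fibrin TNF, fibrin control and collagen control each passed as different from the next.

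Cxcl13, the B cell attractant that binds CXCR5, was high in 3 groups and lower in untreated collagen. Its levels were 11.11, 11.31 and 10.58 in collagen control and 13.04, 13.05 and 12.70 in collagen TNF. In fibrin they were 13.29, 13.14 and 12.82 without TNF and 13.37, 13.31 and 13.17 with it. All 3 collagen control arrays lay below all 9 others, and the fibrin groups overlapped.

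TNF raised Cxcl13 in collagen 3.81-fold (1.93 ± 0.17, adjusted p = 2.16e-05), and untreated fibrin was 4.23-fold above untreated collagen (2.08 ± 0.17, adjusted p = 4.78e-06). With TNF in fibrin the difference was 0.20, with a 95% interval of -0.17 to 0.57 (adjusted p = 0.639). The TNF effects differed by -1.73 between matrices (fibrin minus collagen, 95% interval -2.25 to -1.20, adjusted p = 0.00433). The highest value of any gene on any array was 14.07, and whether signal flattens toward it was not tested. Of the neighbours in the order of group means, only collagen TNF and collagen control passed as different. Between the matrices with TNF the difference was 0.35 ± 0.17 (adjusted p = 0.250). It was called when replicate numbers were used as a block in each gel (adjusted p = 0.0412). That block takes the spread between replicate numbers out of the error, although no pairing was assumed across gels.

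Cxcl16, the membrane-bound ligand of CXCR6, changed by smaller steps with a small spread. Its levels were 11.23, 11.09 and 11.07 in collagen control and 12.24, 12.15 and 12.25 in collagen TNF. They were 12.27, 12.19 and 12.17 in fibrin control and 12.78, 12.65 and 12.76 in fibrin TNF. Collagen TNF and fibrin control overlapped, with collagen control below and fibrin TNF above them on all arrays.

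Cxcl16 rose 2.12-fold with TNF in collagen (1.08 ± 0.07, adjusted p = 1.19e-06) and 1.43-fold with TNF in fibrin (0.52 ± 0.07, adjusted p = 0.00144). It was higher in fibrin than in collagen without TNF (1.08 ± 0.07, adjusted p = 6.32e-07) and with TNF (0.52 ± 0.07, adjusted p = 4.12e-04). The TNF effect was smaller in fibrin, with a difference of -0.57 (95% interval -0.78 to -0.35, adjusted p = 0.0139). Untreated fibrin and TNF-treated collagen did not pass as different, with a 95% interval of -0.15 to 0.15 (adjusted p = 1.00), in a comparison that called 2.66% of all genes.

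**Figure D2:**
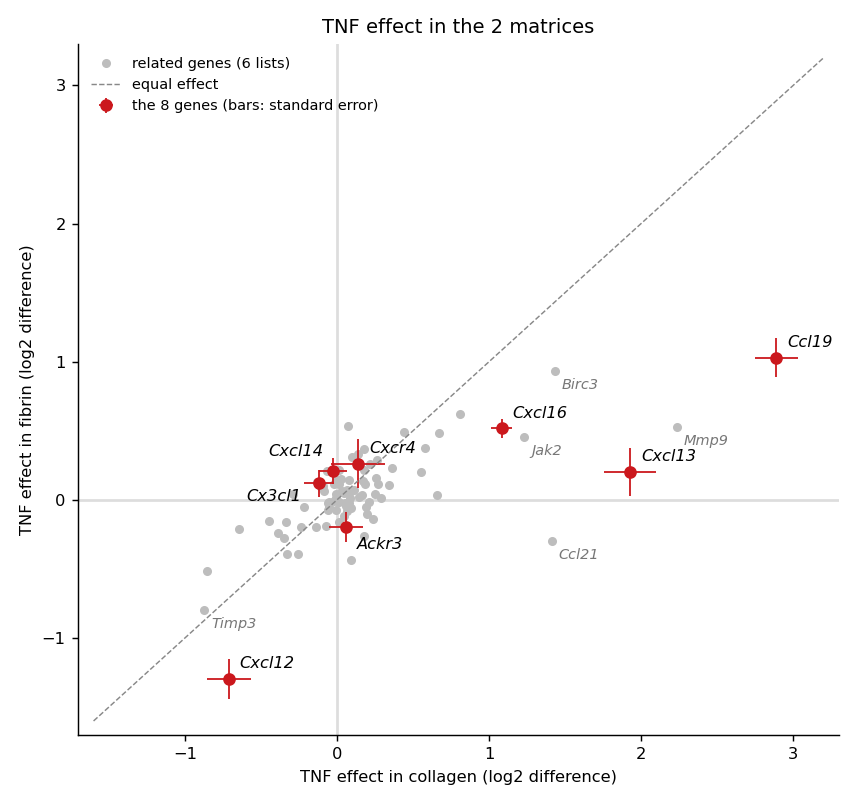
TNF effect in collagen (x axis) against TNF effect in fibrin (y axis), both as log2 differences between treated and untreated rings, for the 8 genes (red, bars are standard errors) and the measured genes of the 6 related lists (grey). The dashed line marks equal effects. Ccl19 (2.89 and 1.03), Cxcl13 (1.93 and 0.20) and Cxcl16 (1.08 and 0.52) lie below it, and Cxcl12 is low on both axes (-0.71 and -1.30).

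Cxcl12, the ligand of CXCR4 and ACKR3, was highest in untreated collagen and lowest in fibrin with TNF. Its levels were 11.42, 11.55 and 11.52 in collagen control and 10.79, 10.69 and 10.88 in collagen TNF. In fibrin they were 10.30, 10.85 and 10.87 without TNF and 9.13, 9.59 and 9.41 with it. The arrays of collagen TNF and fibrin control overlapped. Replicate 1 was the lowest array in both fibrin groups.

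With TNF Cxcl12 fell 1.64-fold in collagen (-0.71 ± 0.15, adjusted p = 0.0111) and 2.45-fold in fibrin (-1.30 ± 0.15, adjusted p = 5.28e-04). The call in collagen was lost without collagen TNF replicate 2 (-0.66, adjusted p = 0.0515). Against collagen, Cxcl12 was lower in fibrin by 1.77-fold without TNF (-0.82 ± 0.15, adjusted p = 0.00261) and by 2.66-fold with TNF (-1.41 ± 0.15, adjusted p = 5.32e-05). Fibrin with TNF stood 4.35-fold below untreated collagen (-2.12 ± 0.15, adjusted p = 4.50e-07), in a comparison that called 20.0% of all genes.

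Of 8 measured smooth muscle markers, 3 were lower with TNF in collagen and 4 in fibrin without TNF, among them Tagln (-0.83 and -0.81). Their mean level ran from 8.31 to 8.61 in collagen control, 8.06 to 8.22 in collagen TNF, 7.99 to 8.32 in fibrin control and 7.84 to 8.07 in fibrin TNF. With TNF in fibrin and between treated matrices 0 of the 8 were called by limma (1 and 2 lower at an unadjusted p under 0.05, medians -0.20 and -0.25), where Cxcl12 fell by 1.30 and was at -1.41. Of all genes, 3.10%, 5.19%, 1.47% and 3.64% were called lower in these comparisons, in the order given. Mfap5, a fibroblast marker, was called lower in the same 4 comparisons as Cxcl12, at -1.29 and -0.72 with TNF in collagen and fibrin and at -1.48 and -0.91 between matrices without and with TNF. The other fibroblast markers were mixed. Dpt was called lower with TNF in both gels (-0.83 and -0.36) and in untreated fibrin (-0.55). Fbln1 was called higher with TNF in collagen (1.03) and in untreated fibrin (1.08), and Pdgfra with TNF in collagen (0.68). Between treated matrices Pdgfra (-0.39) and Lum (-0.35) were called lower in fibrin, as Mfap5 was. Counts over the list of fibroblast markers are given below. The part of these markers in the values of Cxcl12 was not tested.

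The TNF effects on Cxcl12 differed by -0.58 ± 0.21 (fibrin minus collagen, 95% interval -1.03 to -0.14), which did not pass over all genes (adjusted p = 0.234). Without fibrin control replicate 1 this difference passed (-0.77, adjusted p = 0.0438). Collagen TNF and fibrin control were the only neighbours in the order of its group means that did not pass as different (-0.11, adjusted p = 0.830). In the comparison of TNF effects as a whole, 0 of the 8 genes were higher and 3 were lower, against 0.370% and 0.866% of all genes tested. At an unadjusted p under 0.05 the counts were 0 and 4. The median over the 8 was -0.41, beside 0.0084 over all genes.

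Cx3cl1 encodes fractalkine, the membrane-bound ligand of CX3CR1. Its levels were 11.06, 10.82 and 11.12 in collagen control and 10.88, 10.85 and 10.91 in collagen TNF. In fibrin they were 10.96, 11.26 and 11.26 without TNF and 11.35, 11.19 and 11.31 with it. Of the 4 comparisons between groups, the arrays were apart only for the matrices with TNF, with fibrin above collagen.

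That difference was 0.40 ± 0.10, or 1.32-fold (adjusted p = 0.0234). It was lost when any 1 of 5 arrays was left out, namely the 3 of collagen TNF and replicates 1 and 3 of fibrin TNF (adjusted p 0.0614 to 0.0862). The TNF effect on Cx3cl1 was -0.12 in collagen (95% interval -0.33 to 0.09) and 0.12 in fibrin (-0.09 to 0.33).

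Cxcl14, a chemokine made constitutively in epithelia, was in the third of genes of lowest mean, called dim here, where an array value may hold little besides background. Its levels ran from 4.85 to 5.11 in collagen control, 4.81 to 5.08 in collagen TNF, 4.49 to 4.77 in fibrin control and 4.82 to 4.87 in fibrin TNF. It was lower in fibrin than in collagen without TNF (-0.33 ± 0.09, adjusted p = 0.0412). The call was lost when any 1 of 8 arrays was left out (adjusted p 0.0511 to 0.158), and after median centring (-0.27, adjusted p = 0.0811). Of the control arrays these were replicates 1 and 2 of collagen control and replicates 1 and 3 of fibrin control. The others were replicate 3 of collagen TNF and all 3 arrays of fibrin TNF. With TNF in fibrin its arrays did not overlap, but the difference of 0.21 did not pass (adjusted p = 0.305).

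Cxcr4, the signalling receptor of CXCL12, had levels of 9.83, 9.48 and 9.50 in collagen control and 9.92, 9.65 and 9.66 in collagen TNF. In fibrin they were 10.23, 9.53 and 9.80 without TNF and 10.39, 10.13 and 9.83 with it. All neighbouring groups overlapped, and replicate 1 was the highest array in each of the 4 groups.

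The TNF effect on Cxcr4 was 0.14 in collagen (95% interval -0.24 to 0.52, adjusted p = 0.760) and 0.26 in fibrin (-0.12 to 0.64, adjusted p = 0.537). Fibrin minus collagen was 0.25 without TNF (-0.13 to 0.64) and 0.37 with it (-0.01 to 0.76, adjusted p = 0.242), and neither passed. Between the groups of lowest and highest mean, collagen control and fibrin TNF, the difference of 0.51 ± 0.18 did not pass (adjusted p = 0.0606).

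Ackr3, the scavenging receptor of CXCL12, had levels of 10.93, 10.86 and 10.83 in collagen control and 11.02, 10.75 and 11.02 in collagen TNF. In fibrin they were 11.04, 10.86 and 10.94 without TNF and 10.93, 10.83 and 10.49 with it. Its group means spanned 0.20 log2 units, the narrowest range of the 8 genes, and the groups overlapped. Its TNF effect was 0.06 in collagen (95% interval -0.18 to 0.30) and -0.20 in fibrin (-0.44 to 0.05), and the adjusted p was 0.380 or more in the other comparisons.

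**Figure D3:**
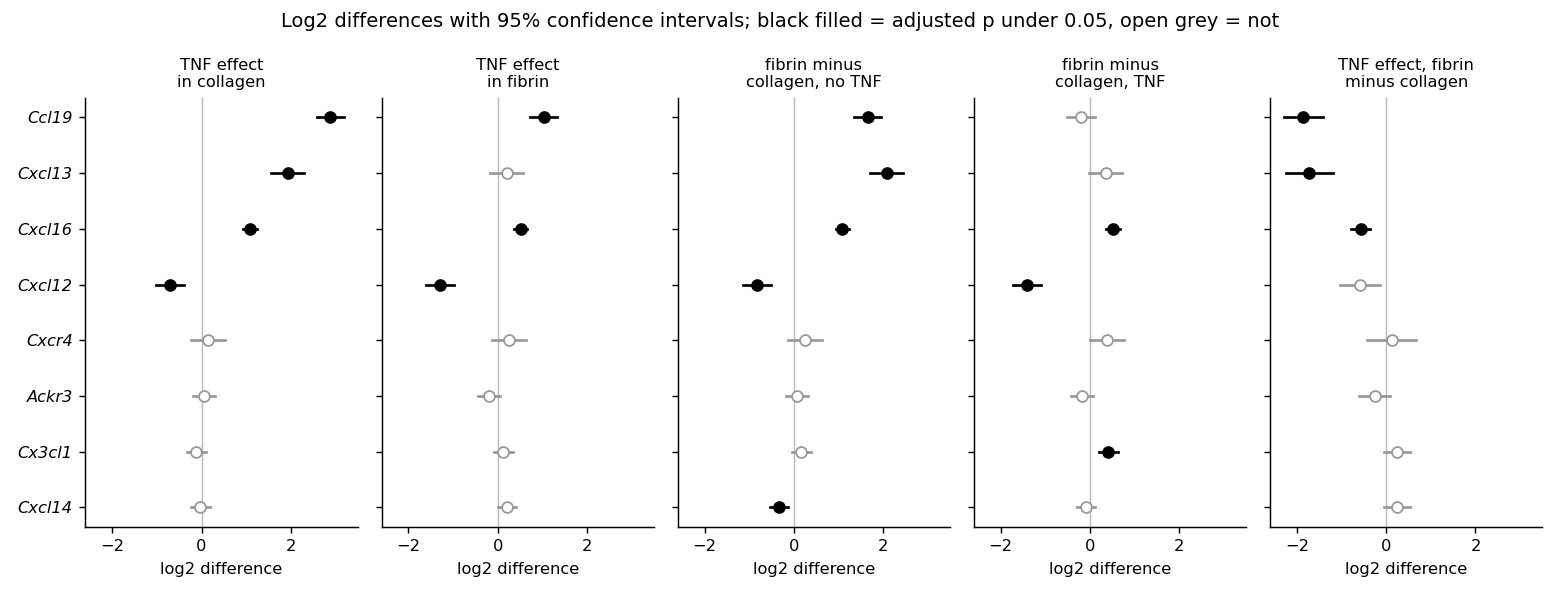
Log2 differences of the 8 genes in the 5 comparisons, with 95% confidence intervals from the fit. Filled black points have an adjusted p under 0.05 and open grey points do not. Cxcl12 is the one gene below 0 in both TNF comparisons and both matrix comparisons among the filled points, and Cxcr4 and Ackr3 are open in every panel.

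For the 4 genes with a range of at least 1 log2 unit, the 3 genes of most similar pattern were those with the smallest root mean square difference of levels, centred per gene, over the 12 arrays. For Cxcl12 they were Lrrc17 (0.18), Srpx (0.21) and Selenop (0.23), the last encoding a selenium transport protein. Group means of Lrrc17 were 8.72 in collagen control, 7.64 in collagen TNF, 7.72 in fibrin control and 6.54 in fibrin TNF. For Ccl19 they were Scin (0.28), an actin-severing protein, Fst (0.29), the activin-binding follistatin, and Ptx3 (0.31), a secreted pentraxin.

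For Cxcl13 the nearest genes were Ccl2 (0.22), the monocyte attractant, Hgf (0.26), the hepatocyte growth factor, and Slc6a2 (0.28), the noradrenaline transporter. Group means of Ccl2 were 10.90, 12.75, 12.66 and 13.25 in the same order of groups. For Cxcl16 they were Pde4b (0.11), a cyclic AMP phosphodiesterase, Slc17a3 (0.12) and Fgr (0.14), a Src family kinase. Among the 8 genes themselves, the closest of the 4 wide-ranging genes were Cxcl13 and Cxcl16, at 0.43.

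**Figure D4:**
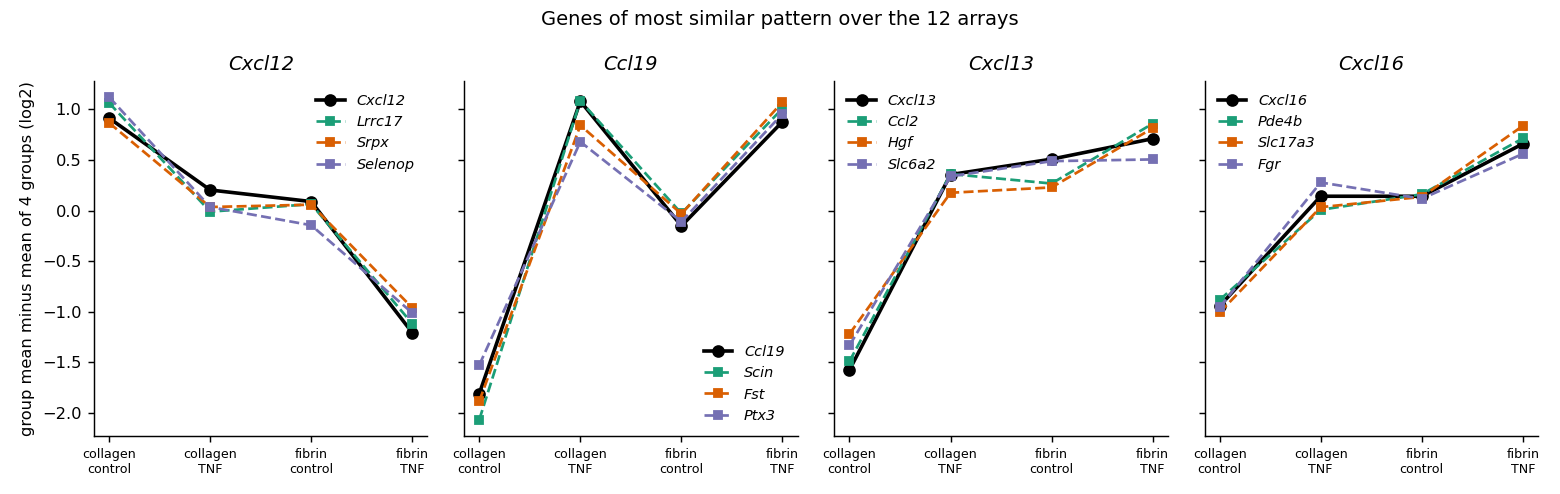
Group means (log2), centred on the mean of the 4 groups, of Cxcl12, Ccl19, Cxcl13 and Cxcl16 (black) and the 3 genes nearest to each over the 12 arrays (coloured, dashed). The x axis gives the 4 groups. Ccl19 and its neighbours are higher in collagen TNF than in fibrin control, while Cxcl12 and Cxcl16 have nearly equal means in these groups.

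Of 8 further receptors of these ligands, 6 were measured, with median differences of 0.088 with TNF in collagen and 0.032 in fibrin. With TNF 0 were called in collagen, where 2 passed at an unadjusted p under 0.05, and 1 fell in fibrin (1.47% of all genes). That gene was Cxcr6, the receptor of CXCL16, at -0.43 ± 0.08 (adjusted p = 0.0126). It was higher in fibrin than in collagen without TNF (0.31, adjusted p = 0.0326). Cxcr6 was dim. Its call with TNF was lost without fibrin control replicate 3 (adjusted p = 0.0513) or fibrin TNF replicate 1 (0.0580). That between matrices was lost without collagen control replicate 1 or 2 or any fibrin control array (up to 0.132), and with the replicate block (0.0764). Ccr7, the receptor of CCL19, lay between 5.94 and 6.08 in the 4 group means, and Cxcr5, the receptor of CXCL13, between 5.45 and 5.78. Neither was called in any comparison. Neither was dim, but the dim limit was a mean of 5.41 and array medians ran from 5.89 to 5.98. How far these levels stand above background was not measured. With TNF 0 of the 6 differed between matrices (1 at an unadjusted p under 0.05).

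Of 6 other homeostatic ligands, all measured, 1 was higher with TNF in collagen (3.27% of all genes) and 0 were called with TNF in fibrin (2 at an unadjusted p under 0.05), with medians of 0.10 and 0.076. Ccl21, the other CCR7 ligand, rose from 4.75 ± 0.20 (SD, n = 3) to 6.16 ± 0.37 with TNF in collagen (1.41 ± 0.23, adjusted p = 0.00205), and its fibrin means were 5.03 and 4.73. Its TNF effect in fibrin was -0.30 (adjusted p = 0.591). With TNF it was lower in fibrin than in collagen (-1.43, adjusted p = 0.00153), whereas Ccl19 was not called there. The difference of TNF effects was -1.71 (adjusted p = 0.0212). It was lost without replicate 2 or 3 of collagen control or collagen TNF, or without fibrin control replicate 2 (up to 0.0611), and with the replicate block (0.0681). Ccl21 was dim by its mean over all arrays. Cxcl17, a chemokine of mucosal epithelia, was higher in fibrin than in collagen without TNF (0.80 ± 0.12, adjusted p = 9.48e-04) and with TNF (0.72 ± 0.12, adjusted p = 0.00273).

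Of 16 listed proteases, sheddases and regulators that cut or release chemokines, 15 were measured, and 3 were higher and 2 were lower with TNF in collagen (median 0.085, beside 0.0027 over all genes, of which 3.27% were higher and 3.10% lower). Mmp9, a gelatinase that can cut CXCL12, rose from 5.76 to 7.998 (2.23 ± 0.18, adjusted p = 1.07e-05), and its TNF effects differed by -1.71 (fibrin minus collagen, adjusted p = 0.00672). Adam17, a sheddase of CX3CL1, rose by 0.34 ± 0.07 with TNF in collagen (adjusted p = 0.00987). With TNF in fibrin it was at 0.11 and was not called (adjusted p = 0.516). Rhbdf2, which carries ADAM17 to the cell surface, rose in collagen (0.44 ± 0.07, adjusted p = 0.00183) and in fibrin (0.49 ± 0.07, adjusted p = 0.00183).

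Timp3, an inhibitor of ADAM17, fell with TNF in collagen (-0.87, adjusted p = 0.00284) and in fibrin (-0.80, adjusted p = 0.00934, or 0.0503 without fibrin control replicate 2). It was lower in fibrin than in collagen without TNF (-0.87, adjusted p = 0.00176) and with TNF (-0.79, adjusted p = 0.00430). Dpp4, the peptidase that trims CXCL12, was dim and fell in collagen (-0.64, adjusted p = 0.0285). That call was lost without any 1 of the collagen arrays other than collagen control replicate 3 (up to 0.102), and with the replicate block (0.0700). With TNF in fibrin the counts were 1 higher and 1 lower (1.65% and 1.47% of all genes). In fibrin against collagen they were 4 higher and 1 lower without TNF (5.35% and 5.19%), with Mmp9 at 1.74, and 1 and 1 with TNF (4.55% and 3.64%).

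Of 24 measured signalling genes of CXCR4 and ACKR3, 3 were higher and 1 was lower with TNF in collagen, and 4 were higher and 1 was lower in fibrin (medians 0.061 and 0.047, beside 0.0027 and 0.012 over all genes). Over all genes 3.27% were higher and 3.10% lower in collagen, and 1.65% and 1.47% in fibrin. Leaving out 1 array gave 2 to 4 higher in fibrin. In fibrin against collagen, 6 were higher and 1 was lower without TNF (5.35% and 5.19% of all genes), and 4 and 1 with TNF (4.55% and 3.64%). Jak2, a kinase of cytokine receptors, rose by 1.23 ± 0.10 with TNF in collagen (adjusted p = 1.04e-05). Its TNF effects differed by -0.77 (adjusted p = 0.0191), a call lost without replicate 3 of collagen control or collagen TNF or fibrin control replicate 2 (up to 0.0558). Rgs16, which ends G protein signalling, rose by 0.81 in collagen (adjusted p = 2.90e-04) and by 0.62 in fibrin (adjusted p = 0.00426). Grk5, a receptor kinase, rose by 0.58 in collagen (adjusted p = 0.00149). Its call in fibrin (0.38) was lost in a fit of only the groups compared (adjusted p = 0.127) and when any 1 of 8 arrays was left out (up to 0.150). These were the fibrin arrays other than fibrin control replicate 1, collagen control replicate 2, and collagen TNF replicates 1 and 2.

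Arrb1, which encodes beta-arrestin 1, was lower in fibrin than in collagen without TNF (-0.54 ± 0.07, adjusted p = 3.97e-04) and with it (-0.60 ± 0.07, adjusted p = 2.20e-04). Its fall with TNF in collagen (-0.33) was lost without any 1 of the collagen arrays other than collagen control replicate 2 (up to 0.0849). That in fibrin (-0.39) was lost without fibrin control replicate 3 or fibrin TNF replicate 1 (up to 0.0618). Ptk2b, a kinase related to focal adhesion kinase, rose with TNF in fibrin (0.53 ± 0.07, adjusted p = 0.00170), and its difference in collagen was 0.07 (adjusted p = 0.695). The difference between these effects was 0.46 (adjusted p = 0.0566).

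Of 15 measured genes of heparan sulfate, the polysaccharide that holds chemokines at cell surfaces, 1 was higher and 2 were lower with TNF in collagen (3.27% and 3.10% of all genes). In fibrin with TNF 0 were called (3 at an unadjusted p under 0.05), and the medians were 0.014 and -0.054, beside 0.0027 and 0.012 over all genes. Sdc4, a syndecan, rose in collagen (0.66 ± 0.11, adjusted p = 0.00295), and was higher in fibrin than in collagen without TNF (0.71, adjusted p = 0.00102). Hpse, the enzyme that cuts heparan sulfate, fell in collagen with TNF (-0.86 ± 0.17, adjusted p = 0.00815) and was lower in fibrin without TNF (-0.85, adjusted p = 0.00534). The fall of Sdc2 in collagen (-0.24, adjusted p = 0.0448) was lost when any 1 of 9 arrays was left out, all 6 of collagen among them (up to 0.141). The others were fibrin control replicate 3 and fibrin TNF replicates 1 and 2, and the replicate block ended the call too (0.0582). Gpc4, a glypican, was higher in fibrin without TNF (0.54, adjusted p = 2.35e-04).

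Lymphotoxin and non-canonical NF-kB signalling is the pathway known to drive stromal CCL19 and CXCL13 in lymphoid tissue. Of its 14 measured genes, 4 were higher and 1 was lower with TNF in collagen (median 0.16, against 3.27% and 3.10% of all genes and a median of 0.0027). In fibrin 4 were higher and 0 were lower (median 0.22, against 1.65% and 1.47% and a median of 0.012). Leaving out 1 array gave 2 to 5 higher in fibrin. In fibrin against collagen, 7 were higher without TNF (median 0.27, against 5.35% higher and a median of -0.0094 over all genes) and 6 with TNF (median 0.18, against 4.55% and -0.0043). In these comparisons 0 were lower by limma (2 and 0 at an unadjusted p under 0.05), against 5.19% and 3.64% of all genes. In the difference of TNF effects 0 of the 14 were called (2 at an unadjusted p under 0.05). The ligand genes Lta, Ltb and Tnfsf11 were dim, and the receptor gene Ltbr and the kinase gene Map3k14 were not. None of these named ligand, receptor and kinase genes was called in any comparison. The kinase gene Chuk was called higher in fibrin than in collagen without TNF (0.27) and with it (0.31). The receptor gene Cd40 was called higher in fibrin without TNF (0.32). Leaving out 1 array could end each of these 3 calls (adjusted p up to 0.111, 0.0839 and 0.134, in the order given). Birc3, named next, is also among the TNF targets used as a check below. Whether this pathway acted on Ccl19 or Cxcl13 was not tested.

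Nfkb2, which encodes the p100 precursor, rose with TNF from 8.50 to 9.17 in collagen (0.67 ± 0.06, adjusted p = 3.67e-05) and from 9.10 to 9.58 in fibrin (0.48 ± 0.06, adjusted p = 0.00113). Birc3, a ubiquitin ligase of this pathway, rose by 1.43 in collagen (adjusted p = 4.52e-06) and by 0.93 in fibrin (adjusted p = 5.29e-04), and was higher in fibrin without TNF (1.495, adjusted p = 1.23e-06). Traf3, which holds the pathway in check, rose by 0.26 in collagen and 0.29 in fibrin. Its call in collagen was lost without replicate 1 or 3 of collagen control or replicate 1 or 2 of collagen TNF (up to 0.0667). That in fibrin was lost without fibrin control replicate 3 or fibrin TNF replicate 1 (up to 0.0574), or in a fit of only the groups compared (0.110). Il7, a lymphocyte survival factor that was dim on these arrays, rose by 0.56 with TNF in collagen (adjusted p = 0.00633). Tnfsf13b, the B cell factor BAFF, was lower in collagen with TNF (-0.35, adjusted p = 0.0237), a call lost without any 1 of the collagen arrays other than collagen control replicate 2 (up to 0.107).

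**Figure D5:**
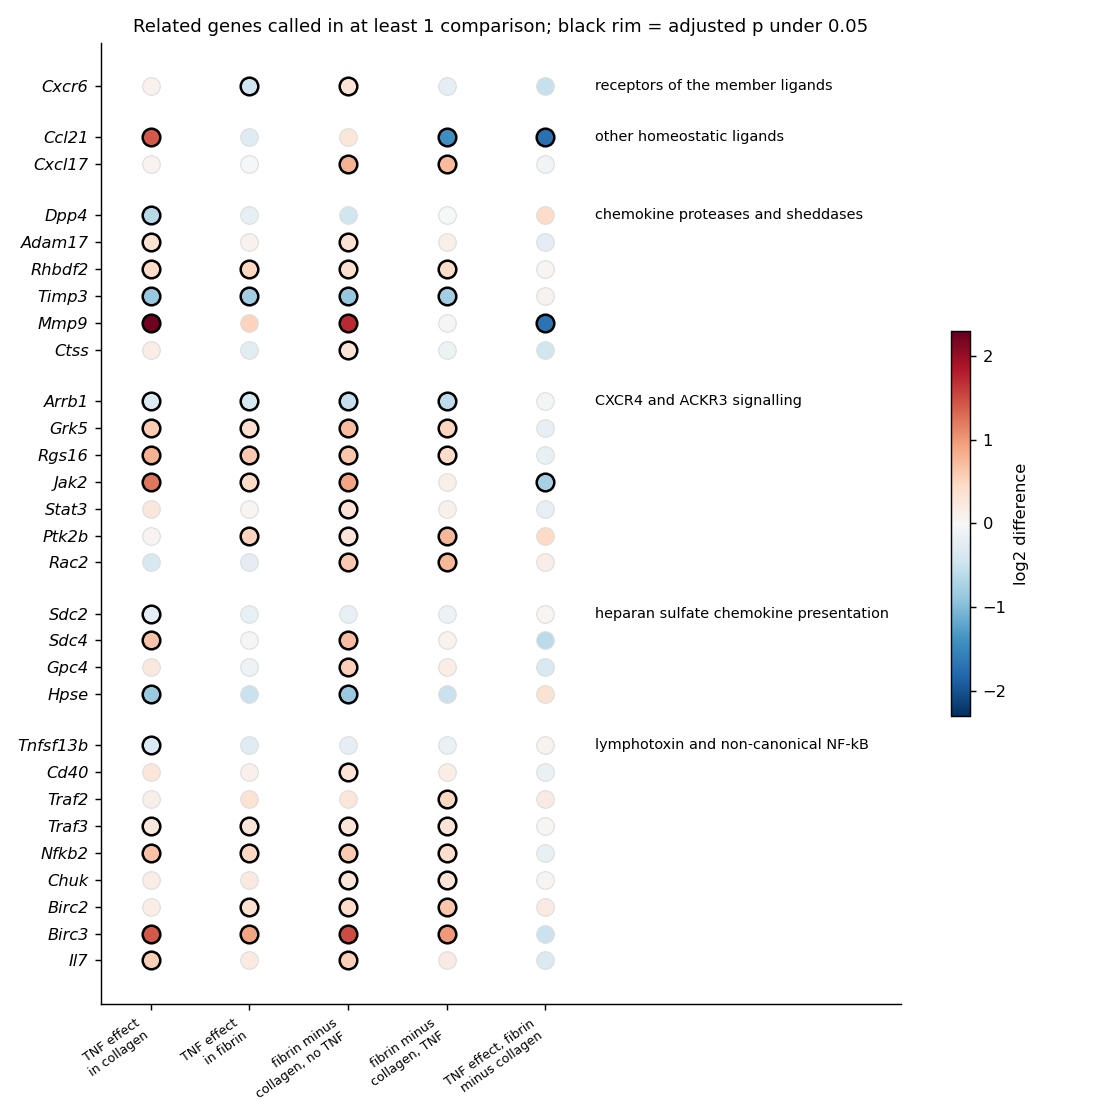
Log2 differences (colour) of the related genes called in at least 1 of the 5 comparisons (columns), grouped by list. A black rim marks an adjusted p under 0.05. Nfkb2 and Birc3 have a rim in both TNF columns and both matrix columns, and Ccl21, Mmp9 and Jak2 are the rimmed genes in the last column, the difference of TNF effects.

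Of 10 fibroblast markers, 2 were higher and 2 were lower with TNF in collagen, 0 and 2 with TNF in fibrin, 1 and 2 between untreated matrices and 0 and 3 between treated ones. Over all genes 3.27% were higher and 3.10% lower with TNF in collagen, and 1.65% and 1.47% with TNF in fibrin. Between untreated matrices the shares were 5.35% and 5.19%, and between treated ones 4.55% and 3.64%. Of the 5 measured markers of lymphatic endothelium, 2 were higher with TNF in collagen, Reln (1.22) and Pdpn (0.62), and Lyve1 was at -0.52 (adjusted p = 0.0520). Prox1, which was dim, was at 0.27 and Flt4 at 0.17, and neither was called with TNF in collagen. Between treated matrices, where Ccl21 was lower in fibrin, 2 were lower, Flt4 (-0.39) and Lyve1 (-1.21). Prox1 (-0.25), Pdpn (-0.07) and Reln (-0.56) were not called there. Lyve1 is also one of the macrophage markers above. It was lower in fibrin between untreated matrices too (-1.28), where Ccl21 was not called (0.28). The part of these markers in the values of Ccl21 was not tested.

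The labelled tissue was checked against marker lists: 0 of the 8 smooth muscle, 1 of the 8 endothelial and 0 of the 10 fibroblast markers measured were dim. All 8 T cell, 4 B cell and 6 neutrophil markers measured were dim, with list means between 3.90 and 4.64 on all arrays. As a check of the treatment, Nfkbia, Icam1, Vcam1 and Birc3, targets of TNF signalling, rose with TNF in both gels. Their medians were 0.76 in collagen and 0.64 in fibrin, where 3.27% and 1.65% of all genes were higher. Without TNF the same 4 genes were also higher in fibrin than in collagen (median 0.78, against 5.35% of all genes). With TNF they were too (median 0.78, against 4.55%). The call of Icam1 between treated matrices (0.33, adjusted p = 0.0290) was lost when any 1 of 4 arrays was left out (up to 0.120). A rise of the 4 genes is thus not particular to TNF treatment.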

How the data were processed

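The values analysed are those the authors deposited, 27342 probe sets on 12 arrays, read as log2 expression levels from their range of 1.44 to 14.07. The scale, summarisation and normalization are not given in the sources used here, and limma is named, with no version, in the submitters' processing notes. Array medians were 5.94 to 5.98 in collagen and 5.89 to 5.93 in fibrin. In the annotation 15097 probe sets carry a single gene and 323 carry several, while 11922 have no name here. The probe set of highest mean stood for each gene.

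All 12 arrays entered a single linear model with 4 group means (limma 3.58.1, R 4.3.3, functions lmFit and eBayes). Tests were two-sided, and p-values were adjusted by Benjamini-Hochberg over the 14324 genes of a comparison, with a threshold of 0.05. The fit was tested on simulated data. Errors of differences are standard errors. The number of arrays limits the precision. Scan dates and gel lots are not given, so no batch was tested. Motifs were searched and figures drawn in Python 3.11.15.

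The 8 genes and all lists were chosen with earlier results of these data known, so they are no independent support. Named genes were the 8, called members of the lists with up to 3 others per list, and the 3 nearest genes in pattern. Alternatives were other normalizations, filters, priors, weights, probe set rules, the groups compared alone, a replicate block and leaving out each array.

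Replicate numbers are shared between groups. Deviations from group means correlated across genes between arrays of the same number at 0.13, 0.14 and 0.14 within collagen and 0.25, 0.14 and 0.16 within fibrin. Every pair within a gel was thus over 0.1, the bar set for pairing by number. The values reported come from the unpaired model, and the fit with the replicate number as block is the alternative, given where it changed a call. Across gels untreated arrays correlated at 0.23, 0.08 and 0.13 and treated ones at 0.05, 0.03 and 0.14, so no pairing was assumed there.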

Additional observations from a re-analysis of the deposited data

Results flagged for a closer look

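The TNF effect differed between the matrices for 3 of the 8 genes, by a test of the difference itself (limma over all 14324 genes). For Ccl19 the TNF effect in fibrin minus that in collagen was -1.86 (adjusted p = 8.58e-04), for Cxcl13 it was -1.73 (adjusted p = 0.00433) and for Cxcl16 it was -0.57 (adjusted p = 0.0139). Without TNF the levels of all 3 were higher in fibrin than in collagen, by 1.66, 2.08 and 1.08. The part of these higher untreated levels in the smaller effects was not tested.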

How the results depend on the processing

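Of the alternative values of the 8 genes in the 5 comparisons, 802 kept their direction and their side of the threshold, 19 lost a call, 2 gained one and 4 changed sign. The sign changes were of uncalled values. Cxcl14 with TNF in collagen was 0.044 without collagen control replicate 2 or collagen TNF replicate 1 (-0.024 with all arrays, and -0.088 to 0.044 over all arrays left out). The difference of TNF effects on Cxcr4 was -0.041 without fibrin control replicate 2 and -0.016 without fibrin TNF replicate 1 (0.12 with all arrays, and -0.041 to 0.31 over all arrays left out). The calls lost were those of Cxcl12, Cxcl14 and Cx3cl1 given above. That of Cxcl14 in the untreated matrices was also lost with quantile normalization (adjusted p = 0.0766), the groups compared alone (0.0878), a trended and robust prior (0.0568) and all probe sets tested (0.0593). Cxcl14 was not tested without the third of genes of lowest mean. For the called values of the related genes, 1626 alternative values kept the call, 127 lost it and 0 changed sign. Fitting only the groups compared ended the calls of Arrb1 (0.0563) and Sdc2 (0.0538) with TNF in collagen, Grk5, Jak2, Traf3 and Birc2 with TNF in fibrin (0.0934 to 0.127), Cxcr6, Stat3, Rac2, Cd40 and Chuk in untreated matrices (0.0523 to 0.0877) and Icam1 in treated ones (0.0501).

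Leaving out each array in turn, 3 to 4 of the 8 genes were called with TNF in collagen, 3 to 3 with TNF in fibrin, 4 to 5 between untreated matrices, 2 to 3 between treated matrices and 3 to 4 in the difference of TNF effects. Over all genes the counts were 568 to 940 (912 with all arrays), 237 to 539 (448), 1071 to 1573 (1510), 727 to 1196 (1173) and 103 to 246 (177). The arrays whose removal lowered a count by over 1.5 times were replicates 2 and 3 of collagen control and 1 and 2 of collagen TNF (TNF in collagen), 2 and 3 of fibrin control and 1 and 3 of fibrin TNF (TNF in fibrin), collagen TNF replicate 3 and fibrin TNF replicate 1 (treated matrices), and collagen TNF replicates 1 and 2 and fibrin control replicate 2 (difference of TNF effects). Fitting only the groups compared gave 230 genes with TNF in fibrin. In the difference of TNF effects, 294 genes were called without the third of genes of lowest mean, which tests fewer genes, and 339 with a trended and robust prior; the cause was not tested.

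With the replicate block within each matrix, 4, 3, 5, 4 and 3 of the 8 genes were called in the 5 comparisons in the same order, and the block changed no call of the 8 other than that of Cxcl13 between treated matrices. In the matrix comparisons this block takes the spread between replicate numbers out of the error. It ended the related genes' calls of Dpp4 and Sdc2 (TNF in collagen), Cxcr6, Ctss, Rac2 and Cd40 (untreated matrices) and Ccl21 (difference of TNF effects), with adjusted p from 0.0530 to 0.0764. The array's background was not measured, so what signal limits for dim genes is unknown.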
